A study of Mus musculus with 21 samples.

Results

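Tibialis anterior muscles taken 7 days after notexin injury were compared with those taken 5 days after it, with the mouse as the unit. The comparison drew on 6 of 21 samples and 28921 of 87822 cells. They came from 3 mice at 5 days post-injury (dpi), with 16448 cells, and 3 mice at 7 dpi, with 12473 cells. All 6 were female C57Bl/6J mice aged 20 months, injected with notexin in the tibialis anterior, and no uninjured or vehicle-injected muscle entered the comparison except through the estimate of spread. Whole muscles were dissociated with collagenase and dispase and captured by the 10x Chromium 3' v3 kit, so that the cells are those that survive dissociation, and intact myofibers are too large to be captured. The samples were chosen by the injury day in the labels alone, and no measured value entered that choice.

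Notexin is a phospholipase from snake venom that destroys myofibers and leaves many of the muscle stem cells (MuSCs) in place. Neutrophils and inflammatory monocytes enter the muscle first and are followed by macrophages that clear debris, and lymphocytes come later. MuSCs leave quiescence, divide as myoblasts, and fuse into new fibers, while fibro-adipogenic progenitors (FAPs) lay down matrix and endothelial cells restore the vessels. The days compared here lie in the stretch when inflammation recedes and new fibers form.

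For each cell the deposited tables held the number of unique molecular identifiers (UMIs, 1 for each captured transcript), how many genes were detected, which percent of the UMIs each of 11 gene classes took, and the cell type that 3 integration methods had each assigned. Labels from Harmony were used unless stated otherwise, and they divided the labelled cells into 10 immune and 13 non-immune types. Values for single genes were not analysed here, so the labels could not be compared with marker genes. They were compared with the other labels instead. Of the labelled cells, 66.2% had the same label from BBKNN and 37.1% from Scanorama, while 99.2% fell on the same side of the division into immune and non-immune cells with either method. The division between these compartments was therefore shared by all 3 methods, and the division within them was not.

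The mice differed in the number of cells and in depth. At 5 dpi the tables held 5321, 8472 and 2655 cells for replicates A, B and C, and at 7 dpi 5968, 4241 and 2264. The summed UMIs were between 18655892 and 54638635 per mouse, and the median per cell was between 5107 and 7630. The share of barcodes kept as cells was 79.0%, 76.2% and 69.9% at 5 dpi and 66.7%, 69.4% and 60.4% at 7 dpi, and was lower in every mouse at 7 dpi (two-sided exact permutation test, p = 0.1, the smallest that 3 against 3 mice allows). The same held for the share of reads in cells, at 85.7%, 86.7% and 77.6% against 72.8%, 75.6% and 66.5%. Over the 15 pairs of samples at most 15 barcodes were shared, or 0.377% of the smaller sample. A pair of mice stood apart within their groups. Replicate B at 5 dpi had few myonuclei and the lowest median UMIs, and replicate A at 7 dpi had many T cells, so results are given without them where that changed a call or moved a value.

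The immune share of the labelled cells was lower at 7 dpi than at 5 dpi. It was 74.6%, 49.5% and 39.6% in the mice at 5 dpi and 29.9%, 24.6% and 29.9% in those at 7 dpi. No mouse at 7 dpi reached the lowest mouse at 5 dpi, and the mice at 5 dpi were spread far more widely than those at 7 dpi. The means were 54.6% ± 18.0 and 28.1% ± 3.06 (SD, n = 3 each), a difference of 26.4 points (two-sided exact permutation test, p = 0.1, the smallest possible). Without replicate A at 5 dpi, the mouse with the highest share, 7 dpi minus 5 dpi was -16.4 points. The 8845 immune cells at 5 dpi and 3434 at 7 dpi made up the denominators for the immune types, and 6966 and 8781 cells those for the non-immune types. Fewer immune cells in the muscle, more non-immune cells, and a different recovery of either from the tissue cannot be told apart in such shares.

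**Figure D1:**
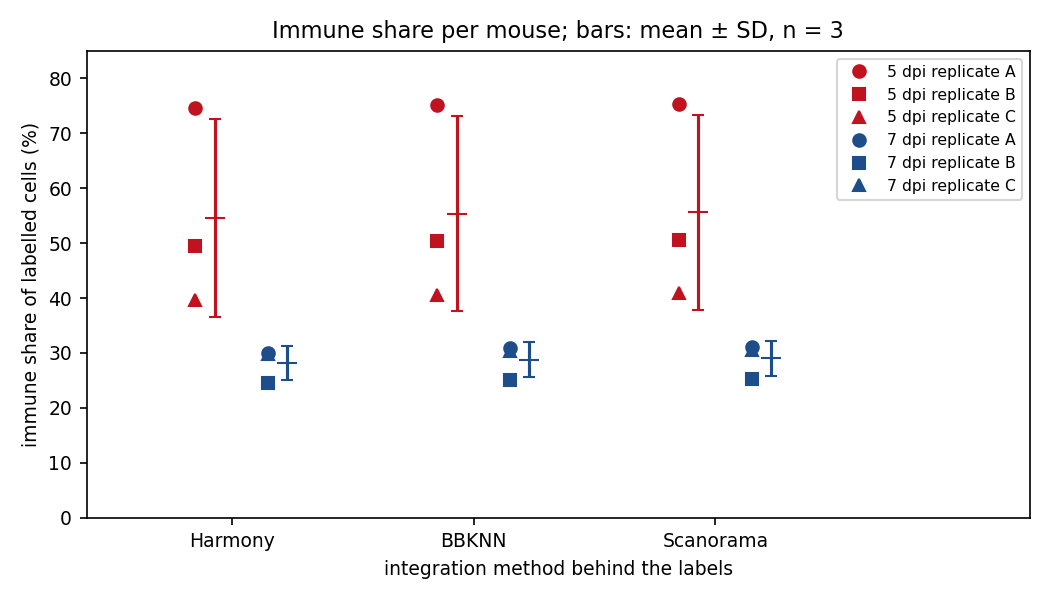
Immune share of the labelled cells (y axis, %) in each mouse, with labels from Harmony, BBKNN or Scanorama (x axis). Points are mice, and bars are the mean ± SD of 3 mice. With Harmony labels the mice at 7 dpi sat between 24.6% and 29.9%, below all mice at 5 dpi, of which the lowest was 39.6%, and the other labels gave the same order of the groups.

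Cells without a Harmony label were also scarcer at 7 dpi. They made up 4.68%, 3.34% and 3.95% of the cells at 5 dpi and 2.31%, 1.86% and 1.81% at 7 dpi, with no overlap between the groups (two-sided exact permutation test, p = 0.1). BBKNN placed 61.5% of these cells at 5 dpi and 42.2% at 7 dpi among Cx3cr1_hi M2 macrophages, and 13.03% and 32.6% among T cells. With them in the denominator the difference in immune share was 24.7 points.

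Within the immune cells, patrolling monocytes fell. The paper describes the monocytes of this label as high in Fabp5 and negative for Cx3cr1 and Ly6c2. They made up 15.9%, 15.3% and 15.8% of the immune cells in the mice at 5 dpi, and 5.10%, 12.8% and 9.49% at 7 dpi. The mice at 5 dpi were nearly equal, and every mouse at 7 dpi lay below them, replicate A by the most. The fitted change was -0.79 on the log2 scale (SE 0.24), or 1.73-fold lower, with an adjusted p of 0.0457 (edgeR quasi-likelihood test, Benjamini-Hochberg over 23 cell types). This was the only type of 23 that was called lower (4.35%), and no type was called higher (0%) although 1 had an unadjusted p under 0.05. The call was lost in edgeR without replicate A at 7 dpi (log2 -0.48, adjusted p = 0.343) or without any other mouse but replicate B at 7 dpi (log2 -0.83 to -0.78, adjusted p = 0.0798 to 0.151). It was also lost with TMM scaling (log2 -0.77, adjusted p = 0.0849 by edgeR), DESeq2 (-0.80, 0.0540), limma on centred log ratios (-0.85, 0.248) or arcsine shares (adjusted p = 0.261) and the 6 samples alone (-0.79, 0.505). With BBKNN labels the change was -1.77 (adjusted p = 0.309 by edgeR) and with Scanorama labels -0.51 (0.753). These labels draw the type differently, since BBKNN gave it to 32.4% of the Harmony patrolling monocytes, and Scanorama gave it also to 97.1% of the Cx3cr1_hi and 96.2% of the Cx3cr1_lo M2 macrophages. With lymphocytes and myonuclei left out of the denominators, the change was -0.52 (adjusted p = 0.0444 over 18 types by edgeR). This setting removes the T cells of replicate A at 7 dpi and was chosen after seeing the data. Its p was adjusted over fewer types than in the main test, so it does not compare directly with the main value.

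The other monocytes were not called. Inflammatory monocytes, the precursors of many tissue macrophages, made up 9.25%, 7.06% and 8.81% at 5 dpi and 5.27%, 7.71% and 11.1% at 7 dpi. Cxcl10+ monocytes, named for an interferon-induced chemokine, made up 3.33%, 2.94% and 4.06% at 5 dpi and 1.43%, 2.93% and 8.28% at 7 dpi. In both types the mice at 7 dpi enclosed the whole range of those at 5 dpi. The fitted folds of 7 over 5 dpi were 0.946 (95% interval 0.664 to 1.35) for inflammatory monocytes and 1.18 (0.616 to 2.28) for Cxcl10+ monocytes.

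M2 macrophages are known for clearing debris and for the signals that accompany repair. The Cx3cr1_hi type made up 18.0%, 13.8% and 16.6% of immune cells at 5 dpi and 9.45%, 16.1% and 8.89% at 7 dpi, a change of -0.49 on the log2 scale (SE 0.26, adjusted p = 0.388 by edgeR). Replicate B at 7 dpi lay inside the range of the mice at 5 dpi and the other mice at 7 dpi below it. The Cx3cr1_lo type made up 14.8%, 12.7% and 15.3% at 5 dpi and 8.36%, 13.4% and 13.7% at 7 dpi, where replicate A alone was outside the earlier range. Without replicate B at 7 dpi the Cx3cr1_hi type was called lower as well (log2 -0.81, adjusted p = 0.0427 by edgeR).

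Dendritic cells, which present antigen to T cells, had a nearly equal mean share at both times, of 11.7% ± 2.00 and 11.8% ± 4.68 (SD, n = 3). The individual mice ranged from 9.77% to 13.8% at 5 dpi and from 6.47% to 15.4% at 7 dpi. Neutrophils, the first granulocytes to enter a wound, made up 1.35%, 1.46% and 0.693% at 5 dpi and 0.974%, 0.977% and 3.01% at 7 dpi, on 7 to 59 cells per mouse. The 95% interval of the fitted fold of 7 over 5 dpi was 0.612 to 1.64 for dendritic cells and 0.629 to 2.54 for neutrophils.

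Lymphocytes together made up 25.9%, 36.9% and 24.9% of immune cells at 5 dpi and 62.9%, 32.6% and 30.1% at 7 dpi, which overlapped (two-sided exact permutation test, p = 0.4). T cells made up 17.1%, 26.6% and 14.9% at 5 dpi and 54.5%, 23.5% and 22.4% at 7 dpi. Replicate A at 7 dpi held more than the other mice by a wide margin, and the remaining mice overlapped. The fitted change was 0.78 (SE 0.37, adjusted p = 0.388 by edgeR), and it was 0.23 without that mouse. B cells, which make antibodies, made up 1.16%, 0.814% and 0.891% at 5 dpi and 1.89%, 2.25% and 1.81% at 7 dpi, on 9 to 44 cells per mouse. Their mice did not overlap, and the fitted fold of 2.06 (95% interval 0.987 to 4.28) did not pass the test (adjusted p = 0.388 by edgeR). NK cells, which kill stressed or infected cells, made up 7.64%, 9.55% and 9.11% at 5 dpi and 6.53%, 6.84% and 5.87% at 7 dpi, again without overlap and without a call (log2 -0.45, SE 0.54).

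Across all 23 types, 2 (8.7%) were higher in every mouse at 7 dpi than in any mouse at 5 dpi and 2 (8.7%) were lower. The higher ones were B cells and arterial endothelial cells, and the lower ones were patrolling monocytes and NK cells. The spread in the edgeR fit came from all 21 samples, so that a type that varied at other time points had a larger error than its 6 mice here show.

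**Figure D2:**
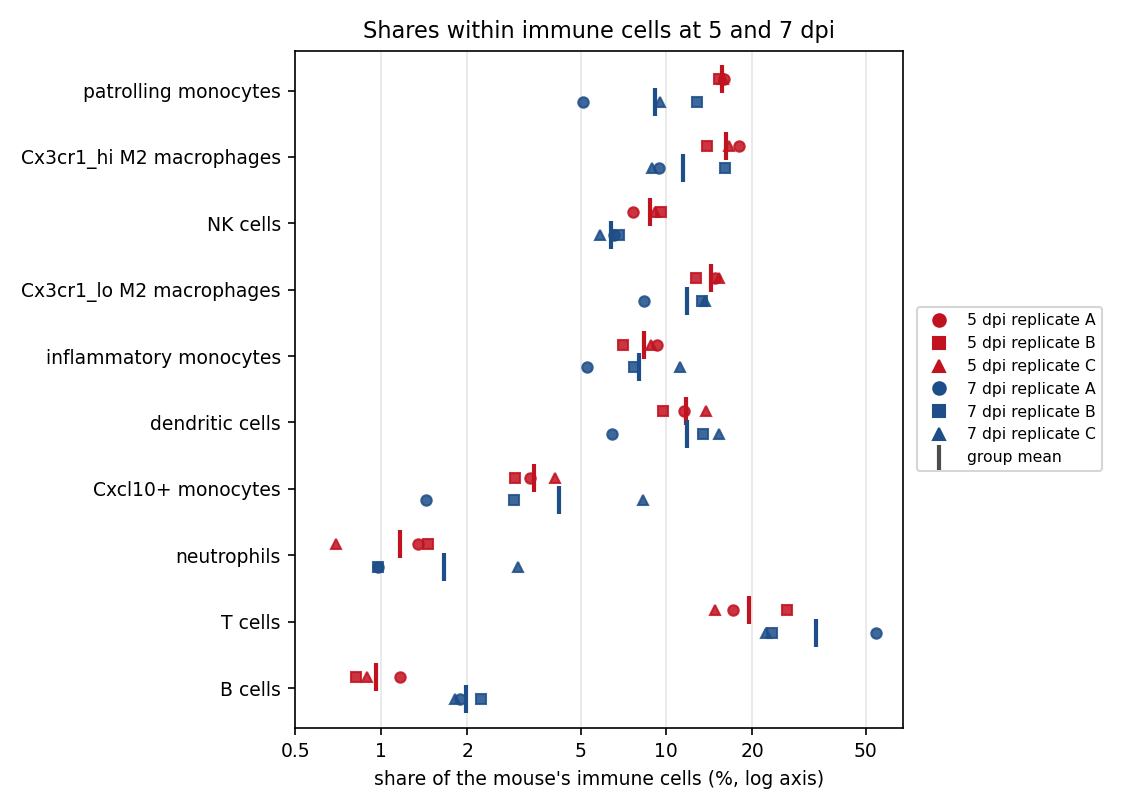
Shares of 10 immune types (x axis, % of the mouse's immune cells, log axis) in the 3 mice at 5 dpi (red) and the 3 at 7 dpi (blue), with vertical bars at the group means. Patrolling monocytes sat between 15.3% and 15.9% at 5 dpi and between 5.10% and 12.8% at 7 dpi, and the T cell share of replicate A at 7 dpi, 54.5%, lay far to the right of the other mice.

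Against all cells of the mouse instead of its immune cells, 4 types were called lower (17.4%) and none higher (0%) by edgeR. Patrolling monocytes went from 8.21% ± 2.75 of all cells to 2.45% ± 0.848 (SD, n = 3), or 3.37-fold lower (adjusted p = 4.47e-06 by edgeR). Cx3cr1_hi M2 macrophages went from 8.58% ± 3.64 to 3.09% ± 0.700, 2.77-fold lower (adjusted p = 0.00371). Cx3cr1_lo M2 macrophages went from 7.48% ± 2.64 to 3.23% ± 0.787, 2.33-fold lower (adjusted p = 0.0117). Inflammatory monocytes went from 4.43% ± 1.86 to 2.22% ± 0.919, 2.02-fold lower (adjusted p = 0.0415). These 4 are the main monocyte and macrophage types, and the change in immune share described above is part of each value. For inflammatory monocytes, with a fitted fold of 0.946 within immune cells, it is nearly all of the value. NK cells were 2.55-fold lower (adjusted p = 0.137 by edgeR) and dendritic cells 1.89-fold lower (adjusted p = 0.263), without a call, and B cells were 1.04-fold higher. T cells held 10.2% ± 3.92 of all cells at 5 dpi and 9.41% ± 5.69 at 7 dpi, so that the direction of their mean difference depended on the denominator.

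Among the non-immune cells no type was called in either direction (0%), by edgeR, DESeq2 or limma, and 0 of 13 had an unadjusted p under 0.05 in any of them. Differences between mice of one group were large in this compartment. The 3 FAP types together made up 42.2%, 59.8% and 20.97% of non-immune cells at 5 dpi and 47.3%, 36.4% and 20.2% at 7 dpi. The range within either group was wider than the difference of 6.40 points between their means.

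Pro-remodeling FAPs, named for matrix genes, were the most abundant of them at 22.5%, 33.8% and 11.4% at 5 dpi and 23.5%, 21.8% and 12.1% at 7 dpi. Adipogenic FAPs made up 11.7%, 18.2% and 6.10% at 5 dpi and 14.6%, 8.95% and 5.64% at 7 dpi. Stem FAPs made up 8.06%, 7.83% and 3.51% and then 9.23%, 5.61% and 2.44%. In all 3 types replicate C was the lowest mouse of its group at both times. BBKNN labelled 71.6% of the adipogenic FAPs as pro-remodeling, and kept the label of 89.3% of the pro-remodeling and 62.7% of the stem FAPs. Scanorama labelled 99.0% of the pro-remodeling and 98.0% of the stem FAPs as adipogenic. Tenocytes, the cells of tendon, made up 3.02%, 2.73% and 0.844% at 5 dpi and 3.06%, 2.52% and 3.08% at 7 dpi, with replicate C at 5 dpi the only mouse outside the narrow range of the rest.

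Endothelial cells together made up 17.8%, 24.2% and 33.5% of non-immune cells at 5 dpi and 28.7%, 30.1% and 36.9% at 7 dpi, a difference of 6.75 points (two-sided exact permutation test, p = 0.3). Capillary cells, which form the exchange vessels around fibers, were the most abundant non-immune type at 7 dpi, at 15.3%, 20.5% and 27.7% at 5 dpi and 23.6%, 25.8% and 30.9% at 7 dpi. Arterial cells were the only endothelial type without overlap, at 1.395%, 2.35% and 3.12% at 5 dpi and 3.40%, 3.35% and 3.91% at 7 dpi. Their fitted fold was 1.55 (95% interval 0.848 to 2.82, adjusted p = 0.778 by edgeR). Venous cells made up 1.16%, 1.31% and 2.66% and then 1.69%, 0.956% and 2.05%.

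Of the cells along the vessels and nerves, smooth muscle cells made up 4.03%, 3.97% and 5.84% at 5 dpi and 2.13%, 3.51% and 4.62% at 7 dpi. Neural and glial cells, chiefly of the nerve, made up 0.853%, 1.02% and 3.18% at 5 dpi and 1.67%, 2.93% and 2.25% at 7 dpi. The mice overlapped in both types.

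In the muscle lineage itself, MuSCs made up 9.61%, 4.33% and 15.6% of non-immune cells at 5 dpi and 5.51%, 7.90% and 5.77% at 7 dpi. The later mice all lay inside the range of the earlier ones. Myoblasts or progenitors, the dividing and committed cells that MuSCs give rise to, made up 6.67%, 1.79% and 6.56% at 5 dpi and 2.52%, 3.86% and 3.72% at 7 dpi, with the same arrangement. Type IIb myonuclei, of the fastest glycolytic fibers, made up 10.2%, 1.62% and 9.16% and then 6.83%, 9.37% and 17.1%. Type IIx myonuclei, of fast fibers, made up 5.50%, 0.580% and 4.35% and then 2.30%, 3.41% and 6.41%. Replicate B at 5 dpi, the mouse with the most FAPs, was lowest for all 4 types. The fitted fold for type IIb myonuclei was 1.59 with a 95% interval of 0.480 to 5.25, which spans both a lower and a several-fold higher share. BBKNN and Scanorama labelled 97.2% and 97.0% of the type IIb barcodes only as myonuclei of cell preparations. For type IIx it was 98.3% and 99.8%, so the fiber types rest on the Harmony labels. BBKNN and Scanorama labelled 93.4% and 99.0% of the MuSCs as committed progenitors. They gave that label also to 68.5% and 72.7% of the myoblasts or progenitors. The division of MuSCs from myoblasts or progenitors therefore rests on the Harmony labels too. Whole cells were dissociated for these samples, without isolation of nuclei.

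**Figure D3:**
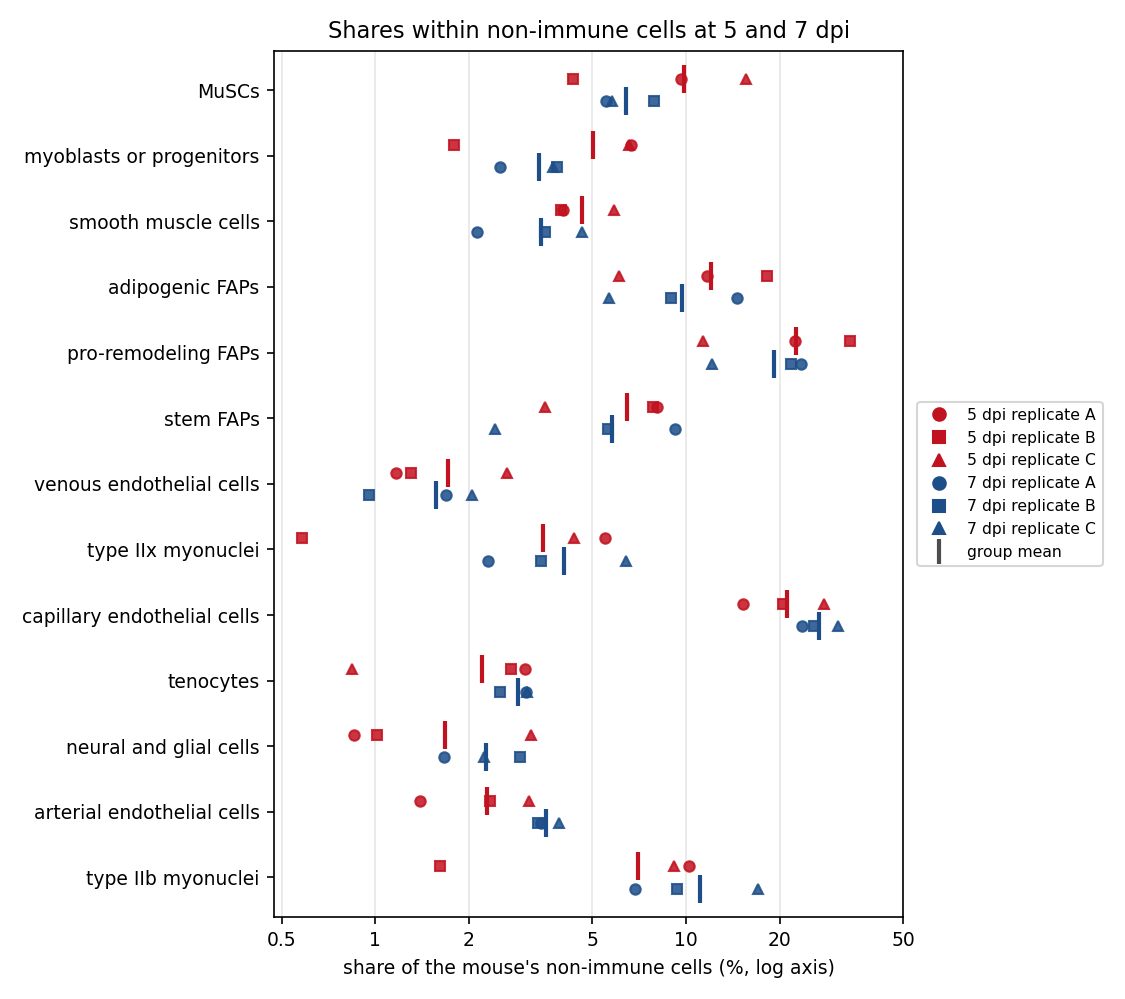
Shares of 13 non-immune types (x axis, % of the mouse's non-immune cells, log axis) in the 3 mice at 5 dpi (red) and the 3 at 7 dpi (blue), with vertical bars at the group means. The mice overlapped in every type other than arterial endothelial cells, where 3.12% was the highest value at 5 dpi and 3.35% the lowest at 7 dpi.

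The deposited tables also placed a subset of MuSCs and progenitors in a myogenic state by their position along a differentiation trajectory, for 182, 201 and 289 cells at 5 dpi and 269, 292 and 102 cells at 7 dpi. Quiescent MuSCs were 57.1%, 65.2% and 65.7% of these cells at 5 dpi and 69.9%, 67.1% and 70.6% at 7 dpi. Every mouse at 7 dpi was above every mouse at 5 dpi, by a mean of 6.51 points (two-sided exact permutation test, p = 0.1, adjusted over 4 states p = 0.4). Against all myogenic cells, myonuclei included, the difference in quiescent MuSCs went the other way, by -10.5 points.

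Activated MuSCs, which have left quiescence, made up 24.7%, 11.4% and 22.1% at 5 dpi and 16.0%, 15.1% and 16.7% at 7 dpi. Committed myoblasts made up 11.54%, 10.9% and 5.88% and then 8.92%, 10.3% and 5.88%. Fusing myocytes, the last state before the fiber, made up 6.59%, 12.4% and 6.23% and then 5.20%, 7.53% and 6.86%, on 7 to 25 cells per mouse. All 3 states overlapped between the times, with mean differences between -3.53 and -1.10 points (two-sided exact permutation tests, p = 0.4 to 0.6).

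The amount of RNA captured per cell did not differ detectably in any type. The fitted change in median UMIs ran from -0.45 to 0.53 on the log2 scale over 23 types, with a median of 0.10, and no type passed the test (0%; lowest adjusted p = 0.844 by limma, with 0 types at an unadjusted p under 0.05). The lowest p belonged to neutrophils, at 1919 and 1723 median UMIs in replicates A and B at 5 dpi and 1723, 2437 and 4348 at 7 dpi, where replicate C at 5 dpi had too few cells to enter. Patrolling monocytes, whose share fell, had 10907, 8237 and 15780 median UMIs at 5 dpi and 5621, 9919 and 9881 at 7 dpi. With standard errors of 0.34 or more, a change of that size could not be told from 0 with these mice.

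The median number of genes gave the same picture, with changes from -0.42 to 0.20 and 0 of 23 types called (0%; lowest adjusted p = 0.824 by limma, and 0 types at an unadjusted p under 0.05). Myoblasts or progenitors had the lowest p, at 3490, 3150 and 4308 genes at 5 dpi and 2808, 3309 and 2128 at 7 dpi. The mice overlapped through replicate B of each group.

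Because the number of genes grows with the number of UMIs, the genes expected at 5000 UMIs were also read from a curve fitted to the cells of each type in each mouse. Over 22 types with enough cells these changed by -0.19 to 0.01 on the log2 scale, and no type was called (0%; lowest adjusted p = 0.417 by limma, with 1 type at an unadjusted p under 0.05). That type was type IIb myonuclei, with 1316, 1567 and 1376 genes at 5 dpi and 1355, 1239 and 1145 at 7 dpi. The fitted value was lower at 7 dpi in 17 of the 22 types. Stem FAPs were the only type (4.55%) in which the mice did not overlap, at 2047, 2051 and 2057 genes and then 2008, 2001 and 1991, a difference of a few percent.

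**Figure D4:**
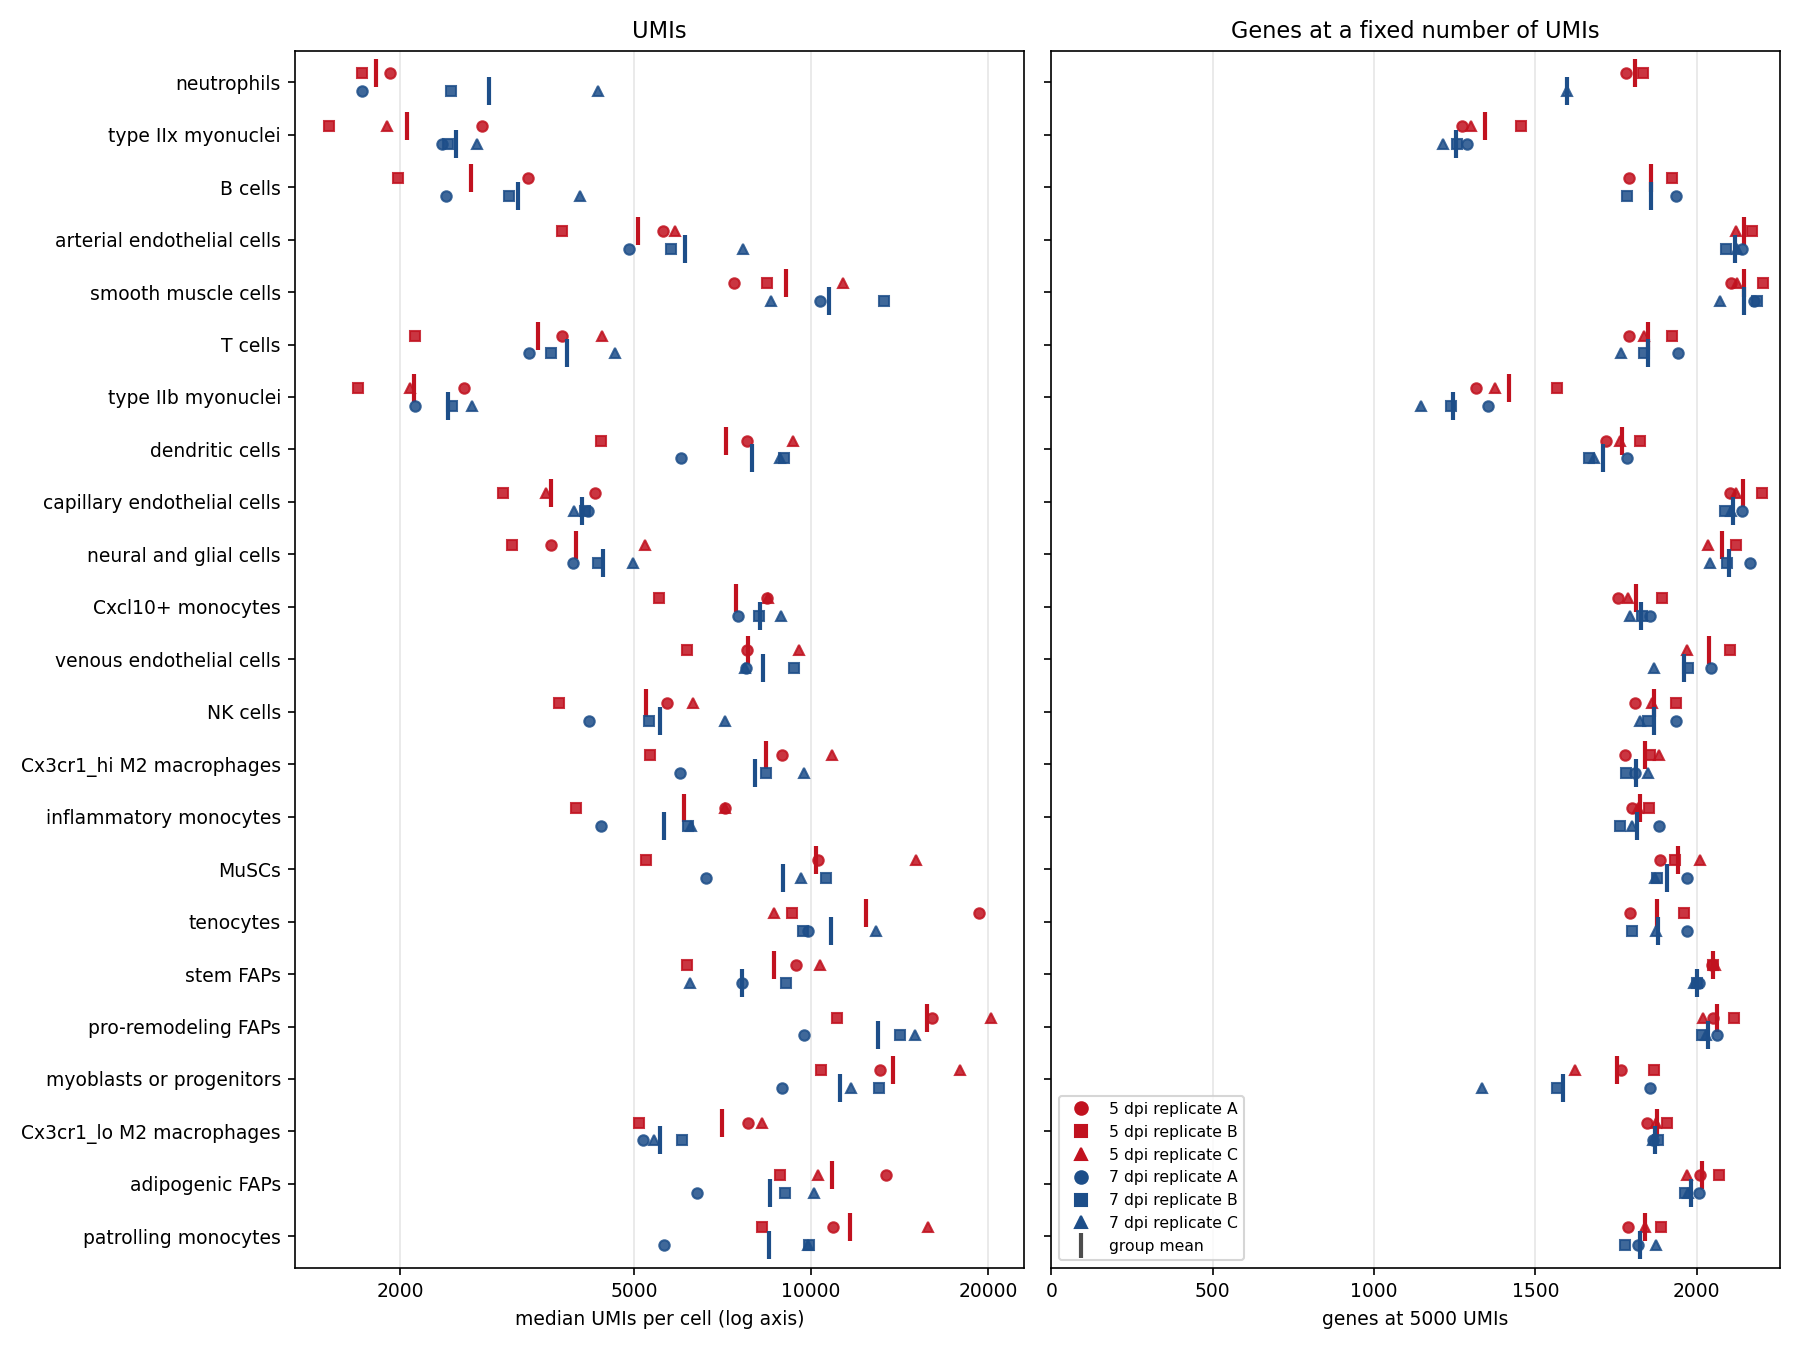
Median UMIs per cell (left, log axis) and genes at 5000 UMIs (right) by cell type in mice at 5 dpi (red) and 7 dpi (blue), with bars at the group means. A mouse with too few cells of a type has no point, and 22 of the 23 types were tested for genes at 5000 UMIs. The mice of the groups overlapped in median UMIs in every type, and the 2 myonuclear types had the lowest group means of genes at 5000 UMIs.

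The mitochondrial share of UMIs was the percent column in which the most types separated. Mitochondrial transcripts encode subunits of the respiratory chain, and their share of a cell's RNA depends both on mitochondrial activity and on how much cytoplasmic RNA the cell keeps through dissociation. In 13 of 23 types (56.5%) every mouse with a value at 7 dpi was above every mouse with one at 5 dpi, and in 0 types was the reverse seen. In B cells and neutrophils only 2 mice at 5 dpi had enough cells for a value, so separation is easier to reach there. Over all 253 combinations of type and column, 27 (10.7%) were higher without overlap and 14 (5.53%) lower. The types of a mouse share its preparation and are not independent, and no single type passed the test across the 253 combinations (0%, by limma, with 21 combinations at an unadjusted p under 0.05).

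The lowest p-values for this column were those of monocytes and macrophages. Patrolling monocytes had a mean mitochondrial share of 4.43%, 4.36% and 5.14% at 5 dpi and 9.29%, 6.84% and 7.69% at 7 dpi (log2 change 0.76, SE 0.19, adjusted p = 0.146 by limma). Cx3cr1_hi M2 macrophages had 3.60%, 4.84% and 4.25% at 5 dpi and 6.94%, 6.43% and 5.97% at 7 dpi. Cx3cr1_lo M2 macrophages had 6.02%, 6.70% and 7.39% and then 10.1%, 9.03% and 9.92%. In these types the lowest mouse at 7 dpi stood 1 to 2 points above the highest at 5 dpi. Inflammatory monocytes had 4.37%, 5.25% and 5.59% and then 7.77%, 6.62% and 6.84%, and dendritic cells 4.80%, 4.86% and 5.46% and then 7.66%, 6.17% and 6.67%. The immune types without overlap were 8 of 10, all but T cells and neutrophils, with B cells counted on 2 mice at 5 dpi.

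Of the 13 non-immune types, 5 had no overlap, namely the 3 FAP types, tenocytes and type IIx myonuclei. Pro-remodeling FAPs had a mitochondrial share of 5.16%, 4.08% and 4.87% at 5 dpi and 5.55%, 5.78% and 6.50% at 7 dpi. Type IIx myonuclei had 0.872%, 1.86% and 1.60% and then 4.74%, 3.20% and 2.45%, the largest fitted change of any type at 1.27 on the log2 scale (SE 0.58, adjusted p = 0.530 by limma). Myoblasts or progenitors went the other way, with 9.73%, 10.99% and 7.21% at 5 dpi and 8.30%, 7.41% and 5.20% at 7 dpi, and overlapped. The share of barcodes kept and the share of reads in cells, given above, were both lower in every mouse at 7 dpi, and their part in the mitochondrial shares was not tested.

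**Figure D5:**
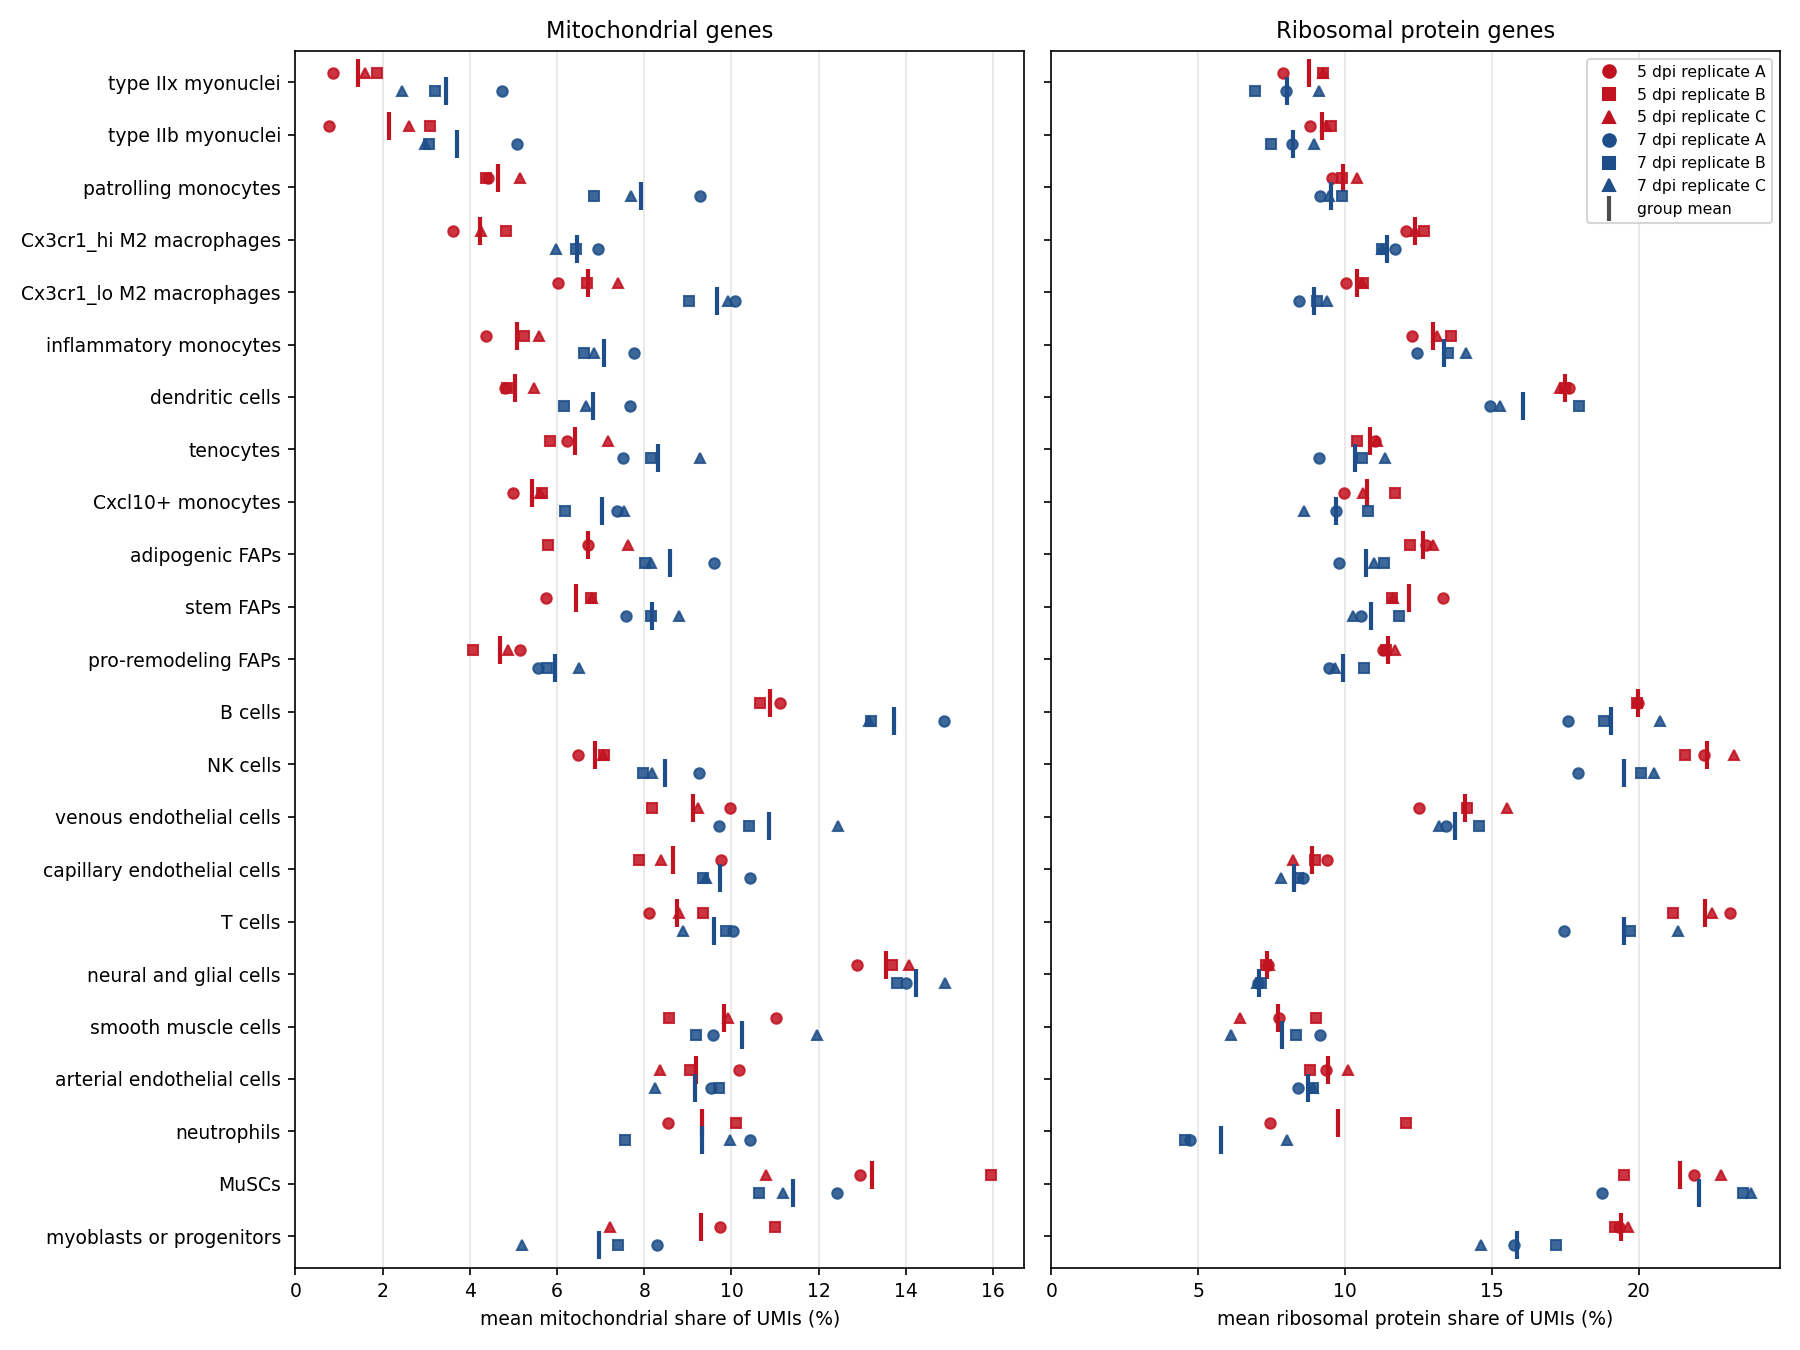
Mean mitochondrial share (left) and ribosomal protein share (right) of the UMIs of a cell, in %, for 23 cell types in each mouse at 5 dpi (red) and 7 dpi (blue), with bars at the group means. Types are ordered by the fitted change of the mitochondrial share, and in 13 of them the blue points all lie to the right of the red points.

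Ribosomal protein genes, whose transcripts follow the capacity of a cell for protein synthesis, had no type past the test. Their share was lower without overlap in 7 of 23 types (30.4%) and higher in 0, and the fitted change was below 0 in 20 types, with a median of -0.13 on the log2 scale. Myoblasts or progenitors had 19.3%, 19.2% and 19.6% at 5 dpi and 15.8%, 17.2% and 14.6% at 7 dpi (log2 change -0.29, SE 0.08, adjusted p = 0.160 by limma). The 3 mice at 5 dpi were within a point of each other, and all lay above those at 7 dpi. MuSCs, from which they derive, had 21.9%, 19.5% and 22.8% and then 18.7%, 23.6% and 23.8%, with overlap. The other types without overlap were adipogenic and pro-remodeling FAPs, both M2 macrophage types, NK cells, and neural and glial cells. Adipogenic FAPs had 12.8%, 12.2% and 12.99% at 5 dpi and 9.80%, 11.3% and 10.98% at 7 dpi.

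Heat shock genes encode chaperones that respond to stress, including that of dissociation. Their share was lower without overlap in 3 of 23 types (13%), both myonuclear types and neutrophils (2 mice at 5 dpi), and higher in 0. Type IIb myonuclei had 0.877%, 0.724% and 0.772% at 5 dpi and 0.485%, 0.513% and 0.433% at 7 dpi, 1.64-fold lower (log2 change -0.72, SE 0.21, adjusted p = 0.158 by limma). Type IIx myonuclei had 0.983%, 0.967% and 0.818% and then 0.628%, 0.683% and 0.599%. The fitted change was above 0 in 13 types.

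Transcription factor genes had a higher share without overlap in 6 of 23 types (26.1%), which were adipogenic and pro-remodeling FAPs, MuSCs, Cxcl10+ and patrolling monocytes, and Cx3cr1_lo M2 macrophages. Adipogenic FAPs had 3.67%, 4.12% and 4.28% at 5 dpi and 5.37%, 5.09% and 4.73% at 7 dpi (log2 change 0.33, SE 0.11, adjusted p = 0.230 by limma). MuSCs had 3.26%, 4.30% and 4.04% and then 5.48%, 4.73% and 4.79%, a log2 change of 0.38 (SE 0.13). In both types the gap between the groups was smaller than the range within either of them.

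The remaining columns gave few separated types. Protein-coding genes took 93.3%, 93.2% and 92.4% of UMIs in patrolling monocytes at 5 dpi and 91.0%, 91.2% and 90.5% at 7 dpi (adjusted p = 0.158 by limma), and were lower without overlap in 3 types (13%) and higher in 1 (4.35%). Small nucleolar RNAs, which guide modification of ribosomal RNA, were higher without overlap in 4 types (17.4%). Cxcl10+ monocytes had the lowest p of all 253 combinations, with 0.00276%, 0.00443% and 0.00474% at 5 dpi and 0.00588%, 0.00756% and 0.00877% at 7 dpi (adjusted p = 0.136 by limma), values that correspond to a fraction of a UMI per cell. Transcripts in the microRNA class were higher in 2 types (8.7%), small nuclear RNAs in 1 (4.35%), and bidirectional promoter lncRNAs lower in 1 (4.35%), the neutrophils, at 0.0196% and 0.0209% at 5 dpi and 0.0113%, 0.00727% and 0.0125% at 7 dpi. Long intergenic noncoding RNAs had their lowest p in type IIx myonuclei, at 0.228%, 0.416% and 0.234% and then 0.817%, 0.446% and 0.274%. Antisense transcripts had theirs in venous endothelial cells, with an adjusted p of 0.864 by limma. In neither column did the mice separate in any type.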

How the data were processed

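The authors aligned 10x Chromium reads to mm10 with Cell Ranger 3.1.0, removed ambient RNA with SoupX, filtered cells in Seurat (3.1.5 per the labels), removed putative doublets with DoubletFinder, and labelled the cells after integrating them with other data sets. The UMI totals per cell are expected counts as the authors deposited them, not whole after the SoupX correction and not normalized. The deposited percent columns give the share of a cell's UMIs from a class of genes, and, per sample, saturation and reads in cells. Numbers of barcodes and reads are counts that the authors deposited per sample, and the deposited fraction is the SoupX estimate of ambient RNA. The gene lists behind the percent columns are not given in the sources used here.

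Cells were counted by mouse and Harmony type. Shares were tested on numbers of cells by the edgeR 4.0.16 quasi-likelihood test with the compartment total as library size and without TMM, over all 21 samples. Medians of UMIs and genes on the log2 scale, and mean percents as log2(percent + 0.01), were tested with limma 3.58.1 over all 21 samples, with at least 10 cells of the type in the mouse. Genes at 5000 UMIs were read from a quadratic fit on log2 scales with at least 20 cells. P-values were adjusted by Benjamini-Hochberg over 23 types, or over 253 combinations of type and percent column, at a threshold of 0.05. Genes at 5000 UMIs and the alternatives were adjusted over the types or combinations that each could test. The cell types share their mice, and limma pools the spread over them. For single shares and states, the difference in means was tested by exact permutation of the mice, two-sided. The depth was between 18655892 and 54638635 UMIs per mouse. An interval of a fold is the estimate ± 1.96 SE on the log2 scale. The edgeR and limma p-values of the main tests take their spread from all 21 samples, not from the compared mice alone. The exact permutation p-values use only the compared mice, with n = 3 per group.

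Each Harmony type is named with its share, and for the other measures the types past the adjusted threshold, or the type with the lowest p. Other types named for a percent column were chosen after their values were seen. Cell types, columns and tests were chosen with earlier results of these data known. Alternatives were DESeq2 1.42.0, TMM, limma on transformed shares, other denominators, labels, filters, minimums and pseudocounts, a block for the replicate letter, and each mouse left out in turn. The tests were checked on simulated data. R 4.3.3, Python 3.11.15, numpy 2.4.6, pandas 2.3.3, scipy 1.17.1 and matplotlib 3.10.9 were used.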

Additional observations from a re-analysis of the deposited data

Results flagged for a closer look

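For NK cells, the change in share of immune cells from 5 to 7 dpi differed from that from 3.5 to 5 dpi, by a test of the difference itself (log2 difference -3.35, SE 0.87, adjusted p = 0.0109 over 23 types by edgeR). Their share was 0.502%, 0.546%, 3.05% and 0.339% in the 4 mice at 3.5 dpi, 7.64%, 9.55% and 9.11% at 5 dpi, and 6.53%, 6.84% and 5.87% at 7 dpi. The mice at 3.5 dpi all lay below those at 5 dpi, which all lay above those at 7 dpi. The 2 steps share the mice at 5 dpi, so the difference is not a measure of 2 separate changes. The step from 5 to 7 dpi alone was not called (log2 -0.45, SE 0.54, adjusted p = 0.809 by edgeR). The difference is therefore mostly the earlier rise, and a rise followed by a level share would also give a difference below 0. NK cells were the only type of 23 called in this test (edgeR), and T cells came next with an adjusted p of 0.152. T cells were called as well with the replicate block (log2 -1.57, adjusted p = 0.0365 by edgeR) and without replicate A at 7 dpi (log2 -2.12, adjusted p = 0.00909). The call for NK cells was lost with the stricter filter on cells (log2 -3.57, adjusted p = 0.0579), with BBKNN labels (-3.16, 0.106) and without replicate B at 5 dpi (-3.22, 0.0683). Scanorama labels, which place 95.8% of the Harmony T cells among NK cells, were not tried in this test.

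Among the mice at 3.5 dpi the NK share of replicate C stood far from the others, with a gap of 0.924 of the group's whole range. The limit for such a gap is one that chance alone passes in about 1 in 20 groups. Without that mouse the log2 difference between the steps was -4.70 (adjusted p = 5.84e-07 by edgeR). The mouse was singled out by the same share that is tested. Leaving it out both widens the earlier step and narrows the spread, so this smaller p adds no support.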

How the results depend on the processing

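The number of immune types called lower in share was 1, and it was 0 with only the 6 samples, TMM, limma on arcsine or centred log ratio shares, DESeq2 or Scanorama labels, 4 with all cells as denominator, and 0 to 2 when each mouse was left out. With BBKNN labels the 1 call was infiltrating monocytes (log2 -1.88, adjusted p = 0.00559 by edgeR), a label that Harmony does not give. With all cells as denominator the log2 change of T cells reversed to -0.11. No type was called in UMIs, genes or genes at 5000 UMIs under any alternative, and in the percent columns 0 to 1 were called higher when each mouse was left out, the 1 being small nucleolar RNAs in Cxcl10+ monocytes without replicate A at 7 dpi. The microRNA column of type IIb myonuclei reversed to 0.026 with the stricter filter, and the median over cells gave no value for the small RNA columns named above. Types higher without overlap numbered 12 to 13 for the mitochondrial share, and types lower without overlap 6 to 10 for the ribosomal share, with a minimum of 30 cells, the median or a UMI-weighted mean over cells, or the stricter filter. With the median over cells or the stricter filter, 1 type was lower without overlap in the mitochondrial share, against 0 otherwise. The lower immune share kept its direction throughout, with -33.9 to -16.4 points when each mouse was left out. Quiescent MuSCs reversed to -10.5 points with all myogenic cells as denominator. With a mouse left out, committed myoblasts ranged from -2.88 to 0.14 points, reversing without replicate C at 7 dpi, and fusing myocytes from -2.98 to 0.12 points, reversing without replicate B at 5 dpi. The causes were not tested. The types called in the difference between the steps numbered 1, and 0 with the stricter filter or BBKNN labels, 2 with the replicate block, and 0 to 2 with each mouse left out. Genes at 5000 UMIs and that difference had alternatives chosen after seeing the data, as did the denominators without lymphocytes and myonuclei.

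Both groups carry the letters A to C. Correlations of the deviations of same-lettered mice A, B and C were -0.15, -0.11 and 0.49 in composition and 0.12, -0.09 and -0.04 in median UMIs. In the percent columns together they were 0.28, 0.096 and 0.69, with B just under the limit of 0.1. The letters were therefore not taken to pair the mice, although the C mice deviated together in composition and in the percent columns. The paper states that several time points were collected at once, and whether the letters mark shared days was not tested. The heat shock column alone had 0.62, 0.48 and 0.83, and with the block the heat shock percent of type IIb myonuclei was still not called (log2 -0.72, adjusted p = 0.117 by limma). With the letter as a block, the call for patrolling monocytes stood (log2 -0.84, adjusted p = 0.0111 by edgeR), and no other share, UMI, gene or percent call was made (0).

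Precision was limited by 3 mice per group and, for B cells, neutrophils and states, by few cells per mouse.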

Other observations

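In the 21 types with a heat shock percent in all 6 mice, replicate C was the lowest of its group in 20 types at 5 dpi and in 20 types at 7 dpi, and replicate A the highest in 20 and 17. In arterial endothelial cells, for example, it was 2.00%, 1.33% and 0.800% at 5 dpi and 1.68%, 1.36% and 0.785% at 7 dpi. The deviations of same-lettered mice in this column had correlations of 0.62, 0.48 and 0.83 for A, B and C. This column was singled out after its values were seen.

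Sequencing saturation was 38.3%, 33.1% and 62.9% at 5 dpi and 46.3%, 54.0% and 71.1% at 7 dpi, and the share of ambient RNA estimated by SoupX was 0.037, 0.062 and 0.028 and then 0.056, 0.027 and 0.020.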
